A study of Arabidopsis thaliana with 3 samples.

Results

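Islands found in the OX TZP list and not in the OX ZFHD10 list, and centred inside protein-coding genes, are described here. An island is a stretch of chromosome where reads from a chromatin immunoprecipitation library are denser than the caller's threshold. Members were OX TZP islands on the 5 nuclear chromosomes that shared not even 1 bp with an OX ZFHD10 island, whose midpoint lay inside a protein-coding gene, and that lay outside those bins of 100 kb where pseudogenes outnumber protein-coding genes. They were thus chosen by the measured island calls of both libraries and by position, and neither property is a result. There were 4293 such islands among 11675 nuclear OX TZP islands, or 36.8% (95% Wilson interval 35.9 to 37.6), in 3938 genes (14.8% of the 26589 protein-coding genes outside those bins). Both lists together held 27797 nuclear islands.

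The series has 3 groups of 7-day-old Arabidopsis thaliana seedlings kept in continuous low blue light, with 1 library each: OX TZP, OX ZFHD10 and Col-0, the wild type. Chromatin of all 3 was precipitated with an anti-GFP antibody, and the titles of the samples carry GFP for each. The labels name neither the promoter that drives the introduced genes nor the number of transgenic lines, and they mention no dissection of the seedlings, so cell types are mixed. The lists of OX TZP and OX ZFHD10 were used, and Col-0 was not analysed here. With 1 library a group nothing has a replicate check, and no test was made. Intervals cover counting error only, and reads copied by PCR are not independent molecules.

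TZP is a nuclear zinc-finger protein of light signalling that works with phytochromes and affects hypocotyl growth and flowering. ZFHD10 belongs to the zinc-finger homeodomain family of plant transcription factors. Sequence-specific factors are typically found near gene starts, in open chromatin. Islands in gene interiors can lie over exons or introns, which the gene table used here does not separate.

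In all, 2112203 reads fell into the 11684 islands of OX TZP, and 4731495 into the 16122 of OX ZFHD10. Depth of the whole libraries is unknown, so read densities are compared within the OX TZP list. Members held 660288 reads, 32.6% of the reads in nuclear OX TZP islands, over 4.15 Mb. Of the OX TZP list, 9 islands lay on organelle genomes and were left out, while the OX ZFHD10 list had 0 there.

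Members were of low density within the OX TZP list, and few stood out. Their median density was 159 reads per kb of island, with the 5th and 95th percentiles at 139 and 194. OX TZP islands inside genes that overlapped an OX ZFHD10 island had a median of 163 (142 to 203), OX TZP-only islands between genes 164 (142 to 211), overlapping islands between genes 169 (145 to 215) and islands in the pseudogene-rich bins 170 (138 to 336). Members thus had the lowest median of these 5 classes, by a margin that is small against the range within each. The 95th percentile was 1.39 times the 5th in members and 1.43 times in overlapping islands inside genes. Between genes it was 1.49 times in OX TZP-only islands and 1.48 times in overlapping ones, and 2.43 times in the pseudogene-rich bins. Outside those bins a narrow range was thus not particular to members. The median length of members was 900 bp and the median read count 141, against 1000 bp and 161 reads in overlapping islands inside genes.

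Most members could not be told from the pooled density within counting error. Densities are bounded below by the threshold of the list. An island of 900 bp with 141 reads has 157 reads per kb, with a 95% exact Poisson interval of 132 to 185, and 90.3% of members fell within those bounds. Taken one by one, 3972 of 4293 members (92.5%) had an interval that held 159 reads per kb, the density pooled over all members. Another 189 members (4.40%) lay above it and 132 (3.07%) below. The same count was not made for the other classes. At least 200 reads per kb were reached by 149 members (3.47%), 250 by 19 and 300 by 10. Among the densest 5% of all nuclear OX TZP islands were 102 members (2.38% of members), 121 overlapping islands inside genes (3.85%), 81 OX TZP-only islands between genes (6.05%), 173 overlapping islands between genes (7.24%) and 107 islands of the pseudogene-rich bins (20.9%).

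**Figure D1:**
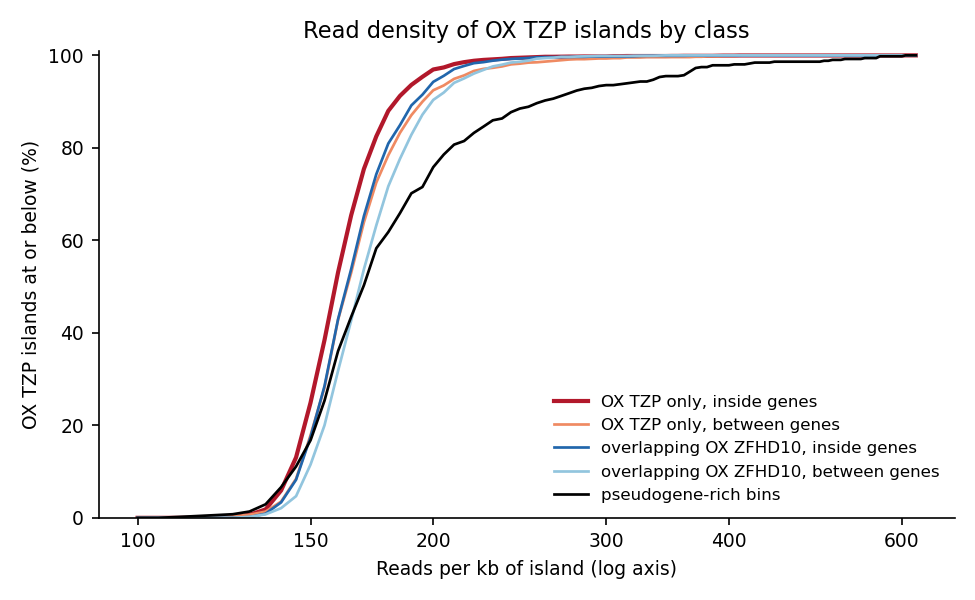
Cumulative share of OX TZP islands (vertical axis, %) at or below a read density (horizontal log axis, reads per kb of island) in 5 classes. The curve of OX TZP-only islands inside genes has the lowest median, 159, and that of the pseudogene-rich bins, with a median of 170, has the longest upper tail.

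The densest members were small in number and lay in varied genes. At one end of AT5G10340, chr5:3253051-3253350 (TAIR10) held 181 reads over 300 bp, which is a density of 603 (95% Poisson interval 519 to 698). Its rank among all nuclear OX TZP islands was 2, and the nearest OX ZFHD10 island was 4050 bp away. At AT1G30140 an island of 1300 bp (chr1:10598301-10599600) had 408 reads per kb (374 to 445) and covered 91.7% of the gene. The gene AT2G02635 held a pair of members, at chr2:723351-729050 with 2249 reads (395 reads per kb, 378 to 411) and at 729801 to 732550 with 1060 reads (385, 363 to 409). The island with 2249 reads was also the longest member, at 5700 bp.

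Of the 15 densest members, 3 lay in genes with a symbol, and a further one shared the density of the last. At PER4, which encodes a peroxidase, the island at chr1:4973551-4974550 had 312 reads per kb (278 to 349), and its midpoint was 29.5 bp inside the gene. At RKP, related to the KPC1 ubiquitin ligase, the island at chr2:9369101-9369750 had 305 (264 to 350), with its midpoint 35.5 bp inside. ASP2, which encodes an aspartate aminotransferase, differed in holding its island near the middle, at 48.9% of the gene (chr5:6599801-6600050), with 256 (197 to 327). At PP2-B13, of the phloem protein 2 family, the island at chr1:21056401-21056650 had the same 64 reads over 250 bp. The remaining members among the 15 densest lay at AT3G09690, AT2G27830, AT4G35030 with AT4G35025, AT3G44670, AT2G14775, AT5G37980, AT2G07787 with AT2G07658, and AT2G07795, with 258 to 356 reads per kb.

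Long members were rare. After the island at AT2G02635 came those at PDIL5-4, a protein disulfide isomerase gene (chr4:13587801-13593100, 5300 bp), and where the ends of UAP56b, an RNA helicase gene, and GLR2.5, a glutamate receptor-like gene, overlap (chr5:3568951-3573100, 4150 bp). BGLU35, a beta-glucosidase gene, held one of 3200 bp (chr1:19087151-19090350) and RNL, an RNA ligase gene, one of 3100 bp (chr1:2447651-2450750). The islands at PDIL5-4, UAP56b and GLR2.5, and BGLU35 had 211, 209 and 210 reads per kb, above the 95th percentile of members. The one at RNL had 152 (138 to 166), below the median.

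A stretch of chromosome 2 stood apart from the other members in its distance to OX ZFHD10 islands. The 12 members at least 100 kb from any OX ZFHD10 island all lay there, between positions 3283351 and 3493550, with 299500 to 509300 bp to the nearest OX ZFHD10 island. Their median density was 197 reads per kb (range 112 to 303) and their median length 400 bp. Elsewhere, members of 400 bp had like densities, such as 207.5 at DCL1, 197.5 at AT1G12290 and 190 at AT1G11160. The median of 197 thus does not by itself set this stretch apart. The densest of the 12 was at 3478201 to 3478500 with 303 (244 to 372), inside both AT2G07787 and AT2G07658. ABCI4, an ATP-binding cassette gene, held one of 218 (181 to 261). This part of chromosome 2 is known to hold a large insertion of mitochondrial DNA. Reads of near-identical copies cannot be told apart there, and the values of these 12 genes are uncertain. The OX TZP list had 8 islands on the mitochondrial genome, with the OX ZFHD10 list at 0, and the part of mitochondrial reads in these members was not tested.

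Distance to the nearest OX ZFHD10 island was in part set by the choice of members. The median distance was 1550 bp, 89 members (2.07%) abutted an OX ZFHD10 island with no base between, and 837 (19.5%) lay under 500 bp from one. At least 5000 bp separated 721 members (16.8%) from any. The abutting members had a median of 161 reads per kb. Just past the limit, 192 OX TZP islands inside genes overlapped an OX ZFHD10 island by at most 100 bp, with a median of 157. At the other limit, 273 members had a midpoint within 100 bp of a gene end on the inner side (median 158), and 165 OX TZP-only islands had theirs within 100 bp on the outer side (median 159).

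Members lay over the whole length of genes, somewhat more often in the middle than at the ends. Positions run from the lower to the higher coordinate of a gene, since the gene table has no strand, and an even spread would put 10% in each of 10 equal bins. From the lowest bin to the highest, the shares of members were 7.57, 8.83, 10.7, 10.8, 13.1, 11.3, 11.4, 10.5, 8.03 and 7.82%. Midpoints in the central 50% of the gene made up 56.9% (55.4 to 58.4) of the 4359 pairs of a member and its gene. An even spread would give 50% there. The share was 26.5% (24.97 to 28.0) for OX TZP islands that overlapped an OX ZFHD10 island. For OX ZFHD10 islands that overlapped no OX TZP island it was 13.7% (12.7 to 14.7). The choice of members bears on this contrast and on the excess of members over 50%. OX ZFHD10 islands lie mostly at gene ends, 34.2% and 34.0% of the OX ZFHD10-only ones inside genes in the lowest and highest bins, and leaving out OX TZP islands that meet them removes islands there.

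**Figure D2:**
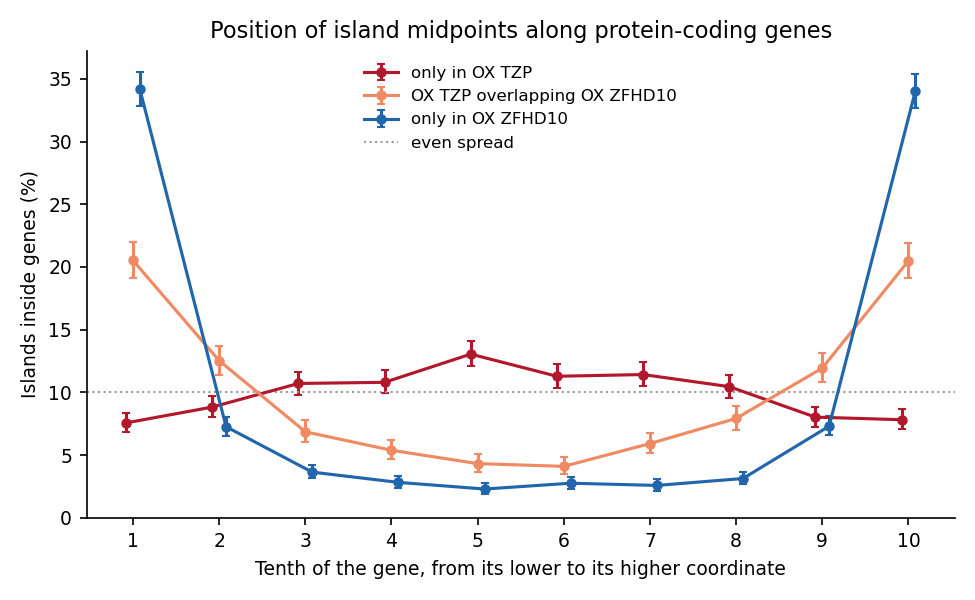
Share of islands with a midpoint inside a gene (vertical axis, %) in each of 10 equal bins of the gene (horizontal axis), with 95% Wilson intervals and a dotted line at an even spread. OX TZP-only islands range from 7.57% to 13.1% and peak just below the middle, while the other sets peak at both ends.

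Measured in bp, members lay deeper in longer genes, as islands spread evenly would too. In genes under 2000 bp the median distance from the midpoint to the nearer gene end was 352.5 bp, in genes of 2000 to 4000 bp 807.5 bp and in genes over 4000 bp 1696 bp. For OX TZP islands that overlapped an OX ZFHD10 island these distances were 270.5, 346.5 and 374 bp, and for OX ZFHD10-only islands 121.5, 134.5 and 130 bp. An even spread alone gives distances that grow with gene length, so the growth in members is not a result about them. Midpoints in the central 50% of the gene made up 53.2, 57.6 and 58.4% of pairs from the shortest class to the longest. The medians of OX ZFHD10-only islands stayed between 121.5 and 134.5 bp. The median density of members was nearly the same along the gene, with 159 reads per kb in the outermost 10% on either side and 158 in the innermost 20%. The densest members were less even. Pairs at 250 reads per kb or more numbered 6 in the outermost 10% on either side and 7 in the next 10%. Further in they numbered 1, 3 and 4, and the 95th percentile fell from 200 and 197.5 to between 189 and 192.5. The whole island lay inside the gene in 71.7% of the pairs of a member and its gene, against 29.5% of those of overlapping OX TZP islands. The median member covered 26.6% of its gene, 60 genes were covered from end to end, and 468 members (10.9%) touched more than 1 protein-coding gene.

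Longer genes held a member more often than short ones. Of all 26589 protein-coding genes outside the bins, 3938 (14.8%) did. The median length of carriers was 2984 bp, and that of the other genes 1974 bp. The share grew with gene length at every step, with 3.90% (3.34 to 4.53) of genes up to 1000 bp, 13.3% (12.3 to 14.4) of 2000 to 2500 bp, 29.1% (26.9 to 31.3) of 4000 to 5000 bp and 73.7% (65.1 to 80.8) of the 118 genes over 10000 bp. Length alone offers more room for midpoints. Per Mb of gene, members numbered 59.9 to 62.2 in the 5 classes up to 3000 bp, 70.4 to 73.3 from 3000 to 7000 bp, 98.9 from 7000 to 10000 bp and 114 above it. The longest genes thus held more members per unit of length as well. The choice of members bears on these values too. Members meet no OX ZFHD10 island, those islands lie mostly at gene ends, and the ends take up a larger part of a short gene. How far this sets the numbers per Mb was not tested. Over the same classes, genes with an overlapping OX TZP island made up between 3.72 and 20.3% (11.5% of all genes), and genes with an OX ZFHD10-only island between 5.76 and 29.5% (16.3% of all genes). Density did not follow gene length, with a median of 163 reads per kb in genes up to 1000 bp and 159 in those over 10000 bp.

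**Figure D3:**
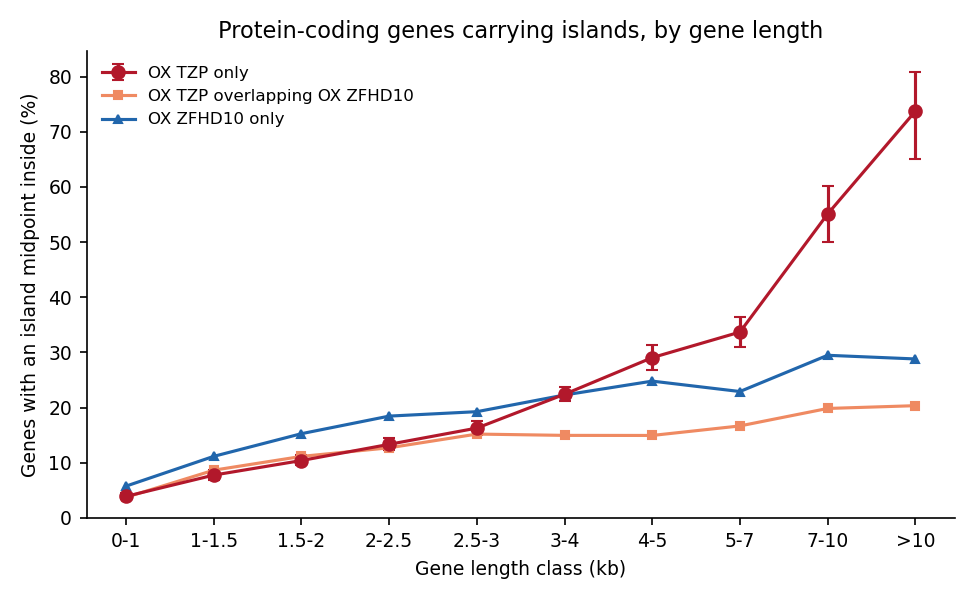
Share of protein-coding genes that hold an island midpoint (vertical axis, %) by gene length class (horizontal axis, kb), with 95% Wilson intervals for OX TZP-only islands. The OX TZP-only share climbs to 73.7% in genes over 10000 bp, above the other sets, which stay under 30%.

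The chromosomes were alike. Members made up between 35.5% (chromosomes 2 and 3) and 37.5% (chromosomes 1, 4 and 5) of the OX TZP islands on each. Carriers made up 13.8% (12.8 to 14.9) of the genes on chromosome 4 and 15.8% (14.7 to 17.0) on chromosome 2, with the others between. Median densities lay between 158 and 162 reads per kb.

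Several members in 1 gene were found in 361 genes (9.17% of carriers), whose median length was 5465 bp, while 3577 genes held a single one. AT1G48090 held 6, the most of any gene. Over its 26499 bp they had 171, 138, 156, 170, 149 and 175 reads per kb in the order of the coordinates, between 0.0585 and 79.3% of the gene. MOR1, a microtubule-associated protein gene, held 5 with 136 to 156 reads per kb, which covered 42.3% of it. AT3G11964, named RRP5 for its part in ribosomal RNA processing, also held 5, with 135 to 162. The kinase gene ATM, of the response to DNA damage, held 5 with 157 to 180 over 27265 bp. TOR, the kinase gene of growth control by nutrients, had the most reads (1064) of the 10 genes with 4 members, with 148 to 163, the widest of them 2750 bp long (chr1:18534001-18536750). Within each of these genes the Poisson intervals of the members overlap. OX ZFHD10 islands touched all 5 genes as well, with 2 at MOR1 and 1 at each of the others. They touched 71.4% of all genes over 4000 bp and 71.8% of carriers of that length.

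**Figure D4:**
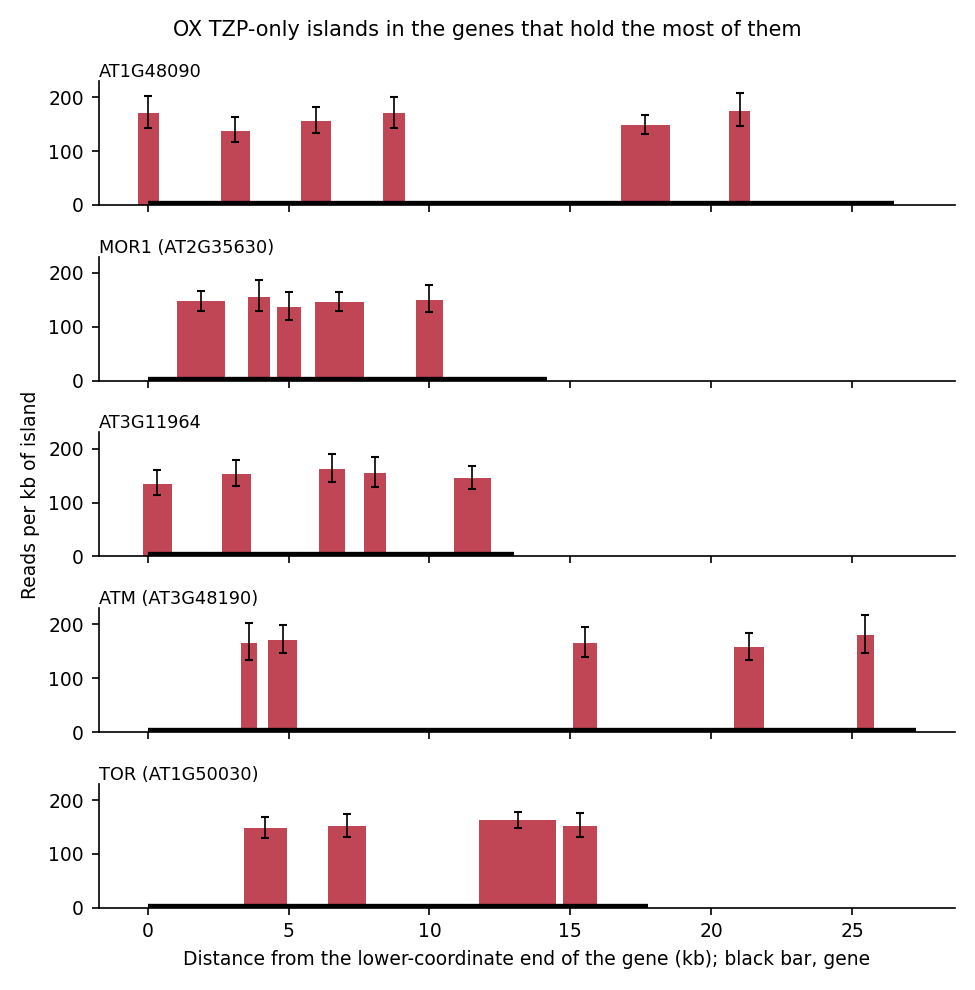
OX TZP-only islands as bars (height, reads per kb with 95% Poisson intervals; width, island length) along the 5 genes that hold the most, drawn as black lines in kb from the lower-coordinate end. Densities stay between 135 and 180 reads per kb in all 5 genes.

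OX ZFHD10 islands elsewhere in the gene were compared within length classes, since carriers are longer than other genes. In genes up to 2000 bp an OX ZFHD10 island touched 27.7% (24.9 to 30.6) of carriers, against 42.6% of all genes. In genes of 2000 to 4000 bp, the class with the most carriers (1887 of 3938), the shares were 59.0% (56.7 to 61.2) of carriers and 65.7% of all genes. Above 4000 bp they were 71.8% (69.1 to 74.4) and 71.4%. Carriers thus had the lower share in the shorter classes, while the pooled shares, 55.3% (53.7 to 56.8) of carriers and 55.6% of all genes, set longer carriers against shorter genes. The choice of members bears on this too, since in a short gene an OX ZFHD10 island leaves little room for an island that does not meet it. OX TZP islands that did overlap OX ZFHD10 were found beside a member in 2.58% of carriers up to 2000 bp, against 7.95% of all genes with such an island. These shares were 9.86% and 14.2% at 2000 to 4000 bp, and 15.5% and 16.3% above.

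Of the 352 located genes of 11 lists, 69 (19.6%, 15.8 to 24.1) held a member, against 14.8% of all genes. These genes are longer than most, with a median of 2924 bp. Weighting the share over all genes to the length classes of the lists gave 21.1%. Each of the 11 lists had an interval that held its own length-weighted share. Member densities in them ran from 133 to 195 reads per kb, and none reached the 95th percentile of members except that at CESA6. That island was 400 bp long with 78 reads, and other members of 400 bp had like densities, such as 202.5 at BZIP60.

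Among 39 genes of light signalling, 9 held a member (23.1%, 12.6 to 38.3; length-weighted share 21.5%). They included the receptor genes PHYA, PHYB and PHYE. PHYA had 178 reads per kb (147 to 214) at chr1:3098851-3099500, at 71.0% of the gene. PHYB had 155 (134 to 179) at chr2:8141201-8142450, at 44.0%, and PHYE 173 (146 to 203) at 85.3%. COP1, the ubiquitin ligase that represses light responses, and its partner SPA2 had 147 (129 to 166) and 154 (128 to 183). PIF1, a growth and germination factor, had 157 (132 to 185) at 57.8% of the gene (chr2:8705301-8706200). CIB1, which binds cryptochrome 2, FAR1 of phytochrome A signalling and NPH3 of phototropism had 164, 158 and 153. All 9 members lay wholly inside their gene, and OX ZFHD10 islands touched 6 of the 9 genes elsewhere, at all but PHYE, PIF1 and NPH3. Among all carriers they touched 27.7% of those up to 2000 bp (the class of CIB1), 59.0% of those of 2000 to 4000 bp and 71.8% of longer ones. For all genes these shares were 42.6, 65.7 and 71.4%.

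Clock and flowering genes held a member in 10 of 40 cases (25%, 14.2 to 40.2; length-weighted 20.2%). At LHY and GI, of the morning and evening parts of the clock, the values were 148 reads per kb (122 to 177; chr1:35351-36150) and 154 (129 to 183; chr1:8064151-8065000), both near the middle of the gene. PRR7 and PRR9, repressors of the morning genes, had 163 (138 to 192) and 160 (133 to 190). RVE4 had 157 and ELF3 of the evening complex 166. TOE1, a repressor of flowering, had 186 (162 to 212), the densest of the list, and CDF2, a repressor of CONSTANS, had 176 (141 to 217). At FT, which encodes the mobile flowering signal, the island at chr1:24333451-24334350 had 151 (127 to 179) and was centred 98.5 bp inside the higher-coordinate end, 10800 bp from the nearest OX ZFHD10 island. SVP, a MADS repressor of flowering, had 151 at its end too. OX ZFHD10 islands touched 8 of these 10 genes, all but FT and ELF3. For all carriers the shares touched were 59.0% at 2000 to 4000 bp and 71.8% above, and for all genes 65.7% and 71.4%.

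Auxin genes held a member in 8 of 43 cases (18.6%, 9.74 to 32.6; length-weighted 18.6%). Those described covered synthesis, with TAA1 (162 reads per kb, 138 to 190), YUC3 (173, 142 to 210) and YUC9 (147), transport, with ABCB19 (148, 126 to 173), and perception or repression, with AFB1 (133, 116 to 152), AFB2 (152) and IAA5 (153). AFB1 had the lowest density of all list members. The list of brassinosteroid and gibberellin genes had 6 of 29 (20.7%, 9.85 to 38.4; length-weighted 18.9%). BAK1, the co-receptor of brassinosteroid and immune receptors, had a long island of 2250 bp that abutted an OX ZFHD10 island (chr4:16087951-16090200; 158 reads per kb, 142 to 175). The others were BRL1, GID1A, BIN2, GA2OX2 and CPD, with 142 to 175.

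Genes of chromatin and DNA methylation had the largest share of the lists, 18 of 42 (42.9%, 29.1 to 57.8), and were also the longest, with a median of 5723 bp and a length-weighted share of 37.6%. DME, DML2 and DML3 encode DNA demethylases, and MET1 and DRM2 DNA methyltransferases. DME had 167 reads per kb (149 to 188; chr5:1311751-1313500) at 37.4% of the gene, DML2 160 (135 to 188), MET1 145 (124 to 170) and DRM2 175 (143 to 212). DML3 held 2 members, with 149 and 182. SWN and MEA, of the Polycomb repressor, had 163 and 148 in the 2 members of SWN and 174 (146 to 205) in MEA. SYD and PKL, chromatin remodellers, held 2 members each, with 159 and 169 at SYD and 160 and 185 at PKL. NRPD1 and NRPE1, the largest subunits of the polymerases of RNA-directed DNA methylation, had 161 and 143, and RDR2 of the same pathway 153. MOM1, REF6, SDG8, ATX2, ATXR7 and SUVH2 completed the list, with 152 to 163. OX ZFHD10 islands touched 11 of the 18 genes, beside 59.0% of all carriers of 2000 to 4000 bp and 71.8% of longer ones. For all genes these shares were 65.7% and 71.4%. OX TZP islands that overlapped an OX ZFHD10 island were found in 3 of the 42 genes (7.14%), beside a length-weighted share of 17.0%. No interval was made for this share, and with a count of 3 it is not read as a lack of such islands.

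The other lists held fewer. Immune receptors had 6 of 32 (18.8%, 8.89 to 35.3; length-weighted 27.9%), at WRR4, BAK1, RPS2, RPS6, TAO1 and RPM1, with 142 to 163 reads per kb. Cell wall genes had 3 of 26 (11.5%, 4.00 to 29.0; length-weighted 20.5%), where CESA6, a cellulose synthase gene, had 195 (154 to 243; chr5:25884001-25884400), and XTH33 and KOR1 had 161 and 152. Ethylene and jasmonate genes had 4 of 37 (10.8%, 4.29 to 24.7; length-weighted 17.7%), at EBF2 (181), ERF1 (179), ACS8 (171) and LOX2 (149). In the same list 15 of 37 genes (40.5%) held an OX TZP island that overlapped an OX ZFHD10 island, beside a length-weighted share of 13.4%. Over all 11 lists together 77 of 352 genes (21.9%) held such an island, beside 13.8%. That pool includes the ethylene and jasmonate genes. Taken singly, cell wall genes had 30.8% beside 13.4%, and brassinosteroid and gibberellin genes 27.6% beside 13.6%. Only the lists of chromatin (7.14% beside 17.0%) and zinc-finger homeodomain genes (6.25% beside 9.88%) lay below their length-weighted share. A share above the length-weighted one is thus not particular to ethylene and jasmonate genes. Photosynthesis and pigment genes had 3 of 31 (9.68%, 3.35 to 24.9; length-weighted 12.6%), at F3H, FLS1 and PSAE-1, with 166 to 178. Housekeeping genes had 3 of 18 (16.7%, 5.84 to 39.2; length-weighted 14.4%), at GAPC1, PP2AA3 and UBQ10, with 154 to 157. How reads of near-identical copies, such as those of UBQ10 repeats, were placed is unknown here. Of the 16 located zinc-finger homeodomain genes 0 held a member, which leaves an interval of 0 to 19.4% beside a length-weighted share of 9.62%.

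Families found by words in gene names were compared in the same way. Of the 25 families with at least 10 genes, 14 had a share above and 11 at or below their length-weighted share, and all 25 intervals held it. Kinesins and myosins, motor proteins with long genes, had 20 of 44 (45.5%, 31.7 to 59.9; length-weighted 44.9%), with the densest member at the myosin gene XIK (222 reads per kb, 199 to 246; chr5:6927901-6929500), followed by ATK5 (184) and XID (175). Helicases had 10 of 23 (43.5%, 25.6 to 63.2; length-weighted 28.2%), with RecQl3 (187), RECQ4B (181) and AT3G09720 (176) the densest. ABC transporters had 26 of 129 (20.2%, 14.1 to 27.9; length-weighted 27.6%). The densest was ABCI4 at 218 (181 to 261), in the stretch of chromosome 2 whose values are uncertain, followed by ABCG37 at 204 and ABCA6 at 184. The bZIP factors had 9 of 45 (20%, 10.9 to 33.8; length-weighted 12.8%), with BZIP60 of the unfolded protein response at 203 (161 to 252), bZIP58 at 165 and TGA10 at 163. F-box genes had 6 of 30 (20%, 9.51 to 37.3; length-weighted 13.8%), led by FBW2 at 237 (214 to 260), with FBS1 at 157 and AFB2 at 152. Terpene synthases had 3 of 14 (21.4%, 7.57 to 47.6; length-weighted 24.4%), at PEN3, AT4G20210 and TPS14. At the low end, cytochrome P450 genes had 22 of 230 (9.57%, 6.40 to 14.1; length-weighted 13.6%) and the short genes of defensin and other cysteine-rich peptides 5 of 105 (4.76%, 2.05 to 10.7; length-weighted 4.30%).

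**Figure D5:**
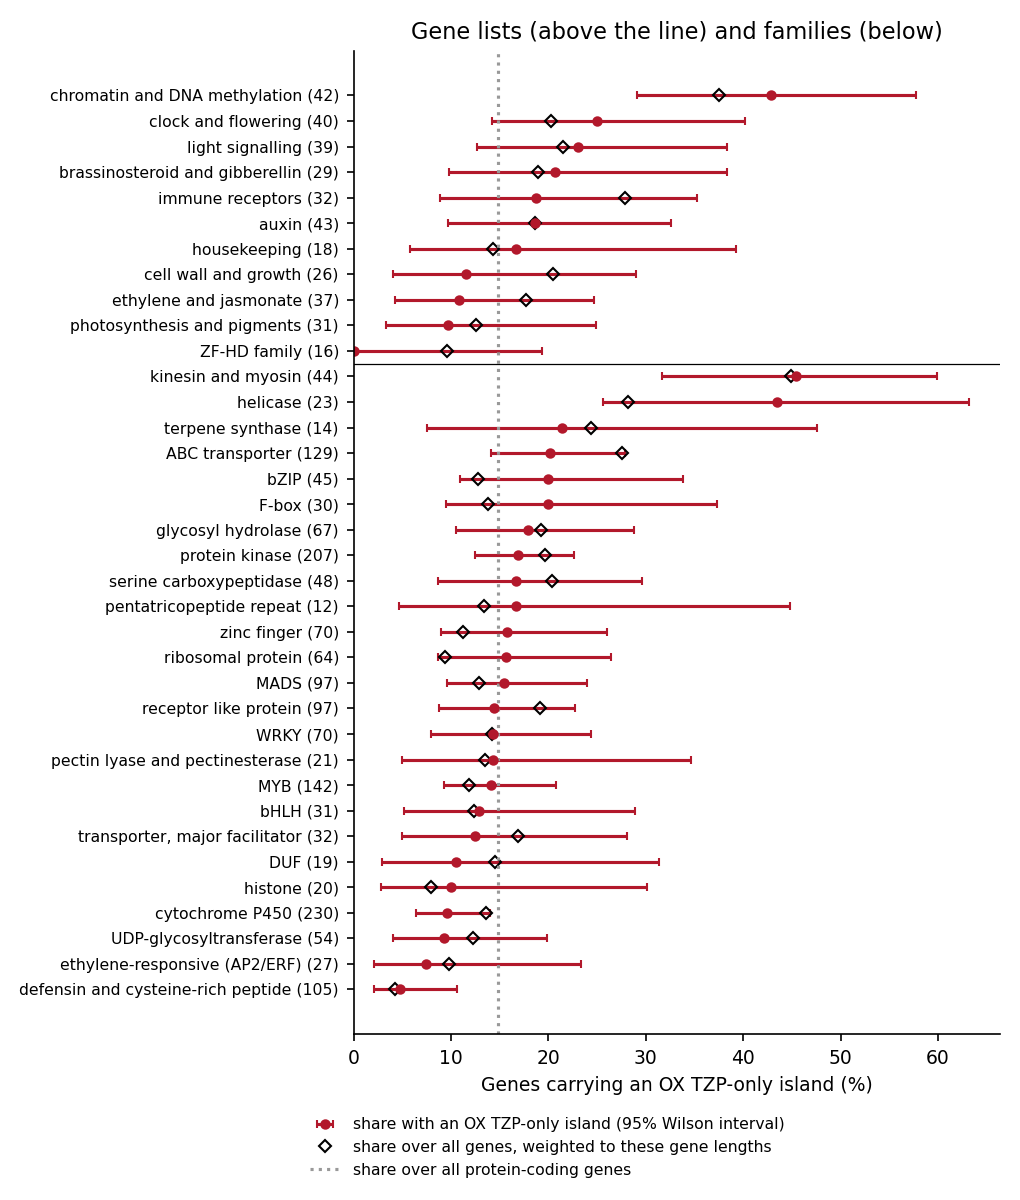
Share of genes that hold an OX TZP-only island (horizontal axis, %; points with 95% Wilson intervals) in 11 lists and 25 families, with the number of genes in parentheses. Diamonds give the share over all genes weighted to the same gene lengths, the dotted line the share over all genes (14.8%), and every interval holds its diamond.

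Members near the median show what a typical one looks like. NCRK, a receptor-like kinase gene, held an island of 1300 bp at chr2:12042501-12043800 with 207 reads, or 159 reads per kb (138 to 182), at 18.8% of the gene. SMC6A, of a complex for DNA repair, had the same count and density at chr5:2429401-2430700, centred 85.5 bp inside the gene's end. AT1G53080, AT5G12350 and LigB had 159 reads per kb as well.

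Neither introduced gene held a member. The OX TZP island over TZP (chr5:17527151-17530300) had 594 reads per kb but overlapped an OX ZFHD10 island, by at most 3100 bp. The one beside HB23, taken as ZFHD10 since the labels give no locus, was not centred in the gene and overlapped one by at most 400 bp.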

How the data were processed

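Each of the lists used, for OX TZP and OX ZFHD10, gives 1 island per line with a start, an end and a count of reads that the authors deposited without scaling. That the values are counts was taken from the values themselves, which are whole numbers that grow with island length. Settings in the names of the deposited lists are 50 bp for the window, 200 bp for the gap and 0.1 for the false discovery rate. TAIR10 is the build, per the submitters' processing notes, which also list SICER 1.1, HOMER, Bowtie 0.12.7 and cutadapt 1.5 without their roles. The control library, the strand of reads and the treatment of reads with several matches are not given in the sources used here.

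Coordinates are 1-based. Density is the count divided by island length. Gene positions, symbols and types came from a RefSeq table of assembly TAIR10.1, which has no strand or exons, and island coordinates are those of TAIR10. To check the match, OX ZFHD10 islands were shifted by up to 3000 bp in steps of 100 bp. The fewest midpoints inside genes (40.6 to 43.8%) were found at a shift of 0 on all 5 chromosomes. Of 1193 bins of 100 kb, 178 were left out. Shares have 95% Wilson intervals and densities 95% exact Poisson intervals. The length-weighted share is the share over all genes in each length class, averaged over the lengths of a list's genes.

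The members and the gene lists were chosen with earlier results of these data known. Of 373 list symbols 357 were located, at 352 distinct genes outside the bins. Symbols shared by several genes were assigned by hand. Of 33 families searched by words in gene names, 25 had at least 10 genes. Some search words were corrected after values were seen, since they matched unrelated names. Words are present in the names of 10501 of 27444 protein-coding genes (38.3%), so families are incomplete. The text names the genes of the 15 densest (with a tie at the last) and the 5 longest members, the 5 genes with the most members, up to 6 members of each list by density, the 3 densest of the 6 families with the highest share, the 5 members nearest the median density, and both introduced genes. Where a list had more than 6 carriers (light, auxin, clock and flowering, chromatin), the rest were added after their values were seen. A carrier of the auxin list is not reported here. Calculations used Python 3.11.15 with NumPy 2.4.6, pandas 2.3.3, SciPy 1.17.1 and matplotlib 3.10.9 and were tested on simulated islands.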

Additional observations from a re-analysis of the deposited data

Results flagged for a closer look

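The OX TZP list held 9 islands on organelle genomes, 8 on the mitochondrial genome and 1 on that of the plastid, and they enter no comparison above. They had 83710 reads, 3.96% of the reads in the list, at 213 to 1880 reads per kb. The OX ZFHD10 list held 0 such islands.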

How the results depend on the processing

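The median density of members stayed between 157.5 and 160 reads per kb under all 7 alternatives run for it. Requiring no OX ZFHD10 island within 1000 bp left 2715 islands in 2500 genes, with 52.8% of midpoints in the central 50% of genes and 13.1% of the list genes carrying a member, beside 9.40% of all genes. Keeping islands at or above the median density of the OX TZP list left 1747 islands in 1661 genes, with 55.3% and 7.10%, beside 6.25% of all genes. Under that alternative the chromatin list, examined this way after its values were seen, had 7 carriers in place of 18, and under the others 16 to 18. Allowing overlap with OX ZFHD10 up to 50% of the island gave 51.8% central midpoints and 27.8% of list genes (19.1% of all genes), and asking for islands wholly inside a gene gave 72.4% and 15.1% (10.5% of all genes). As reported, the shares are 19.6% of list genes and 14.8% of all genes. Counting every window of 50 bp in place of midpoints gave 60.3%. The other values moved by less than their intervals or by less than 1.5 times. No paired analysis was possible because each group has 1 library, which also means that no replicate could be left out. An island missing from the OX ZFHD10 list shows only that its threshold was not passed there, and the depth of the libraries is unknown.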
